A study of Bos taurus with 40 samples.

Results

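Interferon-stimulated genes are the genes that cells switch on after an interferon has bound its receptor. Of the 41 cattle symbols chosen for this group, 32 were among the 13570 genes of the count files and were taken as members. The 9 symbols without a row were BST2, CMPK2, DDX58, IFI44, IFI44L, IFIH1, IFIT1, IFIT2 and ISG20, so a large share of the RNA sensors and of the IFIT family could not be followed. The 40 samples were pituitary gland, liver, longissimus dorsi muscle and abdominal fat of 5 cows (female) and 5 bulls (male) of Korean cattle, slaughtered at more than 22 months of age. The 4 tissues of an animal shared an ear tag. None of the labels named a treatment, an infection or a vaccination, so the values are those of untreated cattle as far as the labels tell.

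Type I interferons act through a receptor pair and the kinases JAK1 and TYK2 on transcription factors that include STAT2 and IRF9 and switch on most of these genes. Their products act at different steps: the MX and GBP GTPases and the IFIT proteins restrain viruses directly, the 2-5A synthetases lead to the breakdown of RNA, ISG15 is a ubiquitin-like protein that is joined to other proteins by its own set of enzymes, and DHX58, IRF7 and STAT2 feed back on sensing and signalling. The same genes are known to have a low basal level in healthy tissue, and the liver, the fat depot and the pituitary gland all hold resident macrophages and other leukocytes beside their own cells.

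Reads assigned to genes numbered 5173092 to 19165864 per sample (median 10005607), which limits the precision of rare genes. Levels are given as CPM, read counts per gene relative to the reads on all genes of a library, scaled with TMM factors over the 40 samples. CPM are not corrected for transcript length, so levels were compared between samples and not between genes. Markers of liver, fat, muscle and pituitary gland were each far higher in their own tissue. The liver labelled bull 3 went against its label, with 1401 CPM of XIST and no read of USP9Y, and it correlated with the liver of cow 4 at r = 0.993 over all genes, while it reached at most 0.978 with any other liver. Over the 32 members, its median absolute log2 difference from the liver of cow 4 was 0.17, against 0.43 to 0.80 from the other livers. The fat of bull 5 and the fat of cow 2 also stood apart, as described below. The counts of members called were also made without these libraries, and are given both ways for the tissues, the sexes in liver and over all tissues, and the animals.

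**Figure D1:**
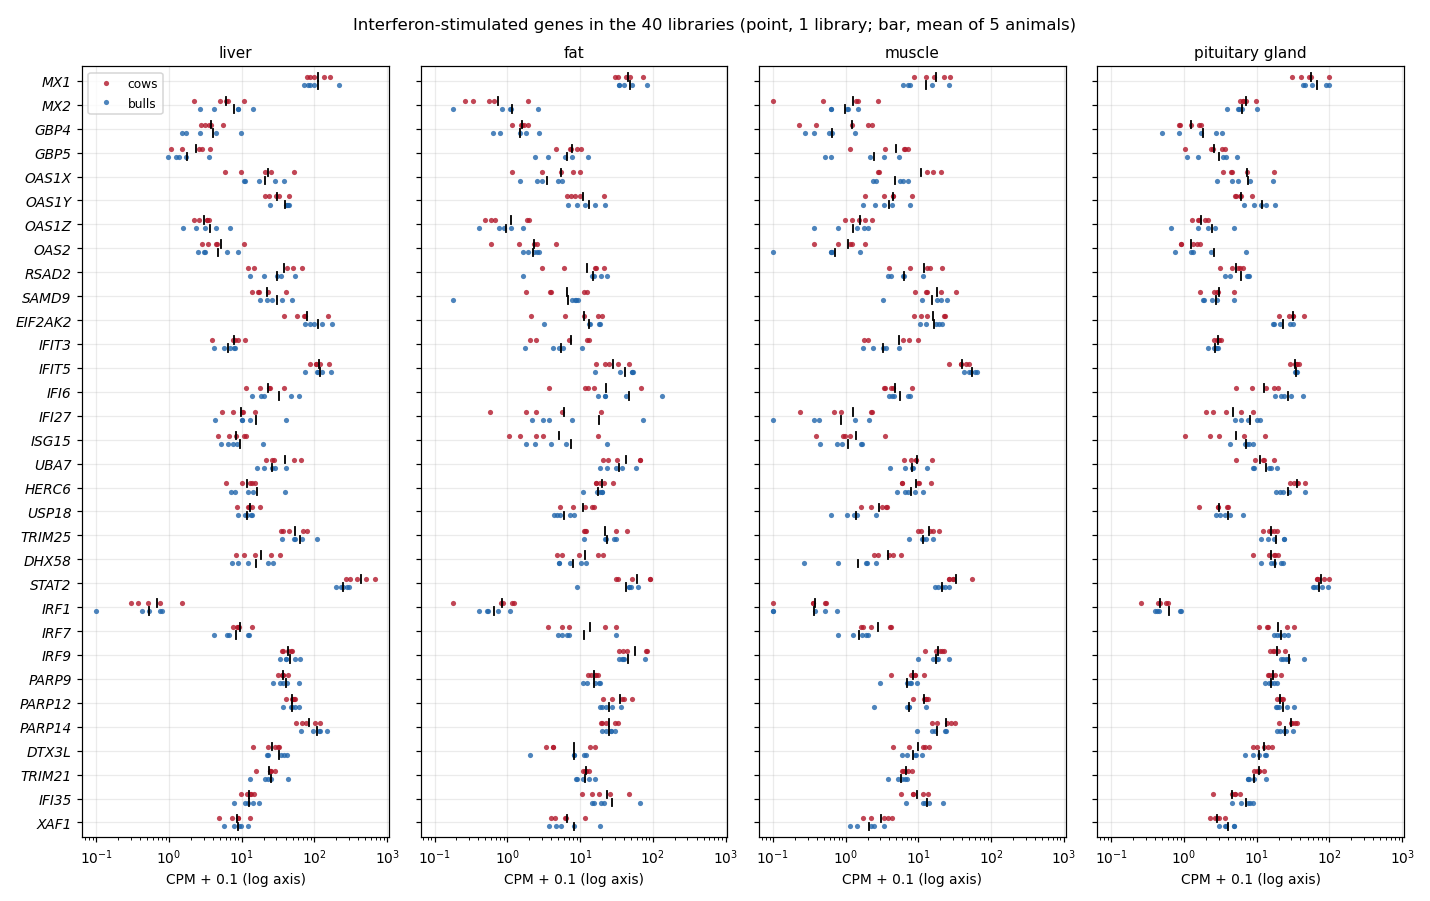
CPM + 0.1 on a log axis for each of the 32 members (rows) in the 4 tissues (panels), with red points for the 5 cows, blue points for the 5 bulls and a black bar for the mean of each sex. MX1 has a mean of 112 CPM in liver and 14.9 CPM in muscle, the red and blue points of each member overlap in every tissue, and IRF1 stays near the left edge throughout.

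The tissues differed in most members, and liver had the highest levels. In edgeR's quasi-likelihood F test over the 3 tissue terms, 31 of 32 members passed an adjusted p of 0.05, where 90.6% of all 13148 genes tested did. IRF1, itself a factor that switches on interferon-regulated genes, was the exception (adjusted p = 0.110). The tissue tests were fitted with sex and tissue and took the tissues of an animal as independent samples. Their p-values, also those below, therefore do not allow for tissues of an animal that deviate together. With the animal as a block, 31 members passed as well. Of the members, 16 were higher in liver than in each of the other 3 tissues (16 of 32, against 13.6% of all genes). Another 2 were highest in fat, GBP5 and IFI35 (2 of 32, against 11.4%), 1 in pituitary gland, HERC6 (1 of 32, against 15.5%), and 0 in muscle (13%). Muscle was the tissue with the lowest level for 14 members (8.56% of all genes), and pituitary gland for 2, IFI35 and SAMD9 (10.3%). Without the liver labelled bull 3, 31 members differed between tissues, 17 were highest in liver and 14 lowest in muscle. Without the fat of bull 5 these counts were 31, 20 and 14, without both libraries 32, 18 and 18, and without the fat of cow 2 in addition 31, 21 and 14. The shares of all genes in these fits are not given here, so the shifts cannot be called particular to the members. No member was lowest in fat (7.65%) or in liver (13.8%). In bulk tissue, fewer cells of a type and less RNA per cell cannot be told apart, so these values describe the tissue and not any cell in it. In the RefSeq cattle annotation, 11 of the 32 members overlap another protein-coding gene, and whether reads were counted by strand is not given in the sources used here, so the counts of these 11 (DTX3L, EIF2AK2, IFIT3, IFIT5, IRF1, IRF9, OAS1Y, OAS2, PARP14, PARP9 and STAT2) are less certain.

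Between pairs of tissues the direction was uneven in the same way. Liver exceeded muscle in 28 of 32 members (28.0% of all genes), and 0 members were higher in muscle (34.0%). The median of the members' liver-to-muscle log2 fold change was 2.11, while that of the 10946 genes with a mean of at least 1 CPM was -0.17. Liver exceeded fat in 20 members (28.9% of all genes) and was lower in 2 (35.4%). It exceeded pituitary gland in 22 (29.4%) and was lower in 2 (35.1%). Fat exceeded muscle in 21 members (32.8%) and was lower in 2 (26.8%). Fat and pituitary gland were more even, with 9 members higher in fat (31.8%) and 6 higher in pituitary gland (32.8%). Muscle exceeded pituitary gland in 3 members (31.5%) and was lower in 16 (32.5%). With RLE in place of TMM factors, the median of those 10946 genes moved from -0.17 to -0.04 for liver to muscle and the member count of 28 and 0 stayed as it was.

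Summed leukocyte markers, 17 of 18 of which were in the files, moved with the tissues too. They came to 1789 to 2692 CPM in liver, 1348 to 3474 in fat, 414 to 1481 in muscle and 325 to 837 in pituitary gland, and all 17 passed the same F test. Their part in the members' tissue differences was not tested. Such a sum weighs each marker by its reads, and CD163 alone had 262 to 1434 CPM in liver. The sums here and below are therefore not a measure of leukocyte number.

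Among the GTPases, MX1, which blocks the multiplication of RNA viruses, had 112 ± 46.2 CPM in liver (SD, n = 10), 61.2 ± 25.4 in pituitary gland, 47.0 ± 17.7 in fat and 14.9 ± 7.88 in muscle. Its order was liver above pituitary gland (log2 fold change 0.87, edgeR QL adjusted p = 0.00427) and fat above muscle (1.65, adjusted p = 1.67e-06), and pituitary gland and fat did not differ beyond their spread (adjusted p = 0.204). Its close copy MX2 followed another order. MX2 had 6.86 ± 3.83 CPM in liver and 6.61 ± 1.87 in pituitary gland (edgeR QL adjusted p = 0.938), but only 0.859 ± 0.784 in fat and 1.01 ± 0.746 in muscle. Pituitary gland thus exceeded fat by 2.92 on the log2 scale for MX2 (adjusted p = 1.60e-07) and by 0.38 for MX1, and this difference between the copies was not itself tested. MX1 and MX2 share sequence, so reads that fit both may be missing from either.

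GBP4 and GBP5, GTPases known mainly from the response to interferon gamma, went opposite ways. GBP4 was highest in liver at 3.79 ± 2.38 CPM, against 1.44 ± 0.902 in pituitary gland, 1.44 ± 0.600 in fat and 0.841 ± 0.748 in muscle. GBP5 was highest in fat at 7.07 ± 3.12 CPM, against 3.59 ± 2.56 in muscle, 2.72 ± 1.38 in pituitary gland and 1.95 ± 1.03 in liver. The fat-to-muscle log2 fold change of GBP5 was 0.997 (edgeR QL adjusted p = 0.0222) and its fat-to-liver value was 1.84 (adjusted p = 7.45e-05).

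The 2-5A synthetases, which make the messenger that activates RNase L, were all highest in liver by their means. Cattle carry 3 neighbouring copies of OAS1, whose reads can be split or lost between them. OAS1Y had 34.6 ± 9.31 CPM in liver, 11.9 ± 5.92 in fat, 8.88 ± 4.25 in pituitary gland and 4.10 ± 2.19 in muscle, and the lowest of the 10 livers (20.8 CPM, cow 1) lay below the highest fat (22.2 CPM, bull 5). OAS1X had 21.9 ± 14.5 CPM in liver, 7.80 ± 6.43 in muscle, 7.39 ± 5.30 in pituitary gland and 4.42 ± 2.86 in fat. OAS1Z was the least abundant in reads, with 3.24 ± 1.49 CPM in liver, 1.95 ± 1.15 in pituitary gland, 1.33 ± 0.596 in muscle and 0.946 ± 0.582 in fat. The liver of OAS1X and OAS1Y exceeded each other tissue, whereas for OAS1Z liver and pituitary gland did not pass the threshold (edgeR QL adjusted p = 0.0504). OAS2, which overlaps OAS1Y in the cattle annotation, had 4.87 ± 2.78 CPM in liver and 0.795 ± 0.545 to 2.18 ± 1.08 elsewhere.

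The other effectors that act on nucleic acids or nucleotides were led by EIF2AK2, the kinase PKR that stops translation on double-stranded RNA. EIF2AK2 had 95.5 ± 43.1 CPM in liver, 27.0 ± 8.43 in pituitary gland, 15.9 ± 5.42 in muscle and 12.4 ± 6.62 in fat, and its liver-to-pituitary log2 fold change was 1.81 (edgeR QL adjusted p = 1.43e-06). The 2 livers with the most EIF2AK2 were those labelled bull 3 (174 CPM) and cow 4 (154 CPM), the pair that resembled each other over all genes. RSAD2 (viperin), which makes a chain-terminating nucleotide, had 33.9 ± 19.4 CPM in liver and 13.6 ± 7.61 in fat, followed by 9.13 ± 5.68 in muscle and 5.56 ± 1.69 in pituitary gland. SAMD9, a restriction factor of poxviruses, had 26.2 ± 11.9 CPM in liver and 16.6 ± 8.59 in muscle, which did not differ (adjusted p = 0.137), and only 2.78 ± 1.15 in pituitary gland.

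Of the IFIT proteins, which bind foreign RNA, IFIT5 was highest in liver (117 ± 29.5 CPM) and had 46.8 ± 11.2 CPM in muscle, 35.1 ± 15.1 in fat and 34.4 ± 2.59 in pituitary gland. IFIT3 had 7.13 ± 2.17 CPM in liver and 6.36 ± 4.27 in fat, with 4.28 ± 2.79 in muscle and 2.71 ± 0.302 in pituitary gland. The spans of both overlap that of LIPA in the cattle annotation. The small membrane proteins IFI6 and IFI27 were lowest in muscle, at 5.05 ± 1.81 and 0.972 ± 0.874 CPM. In fat their SD exceeded their mean, with 34.9 ± 39.3 CPM for IFI6 and 11.9 ± 22.3 CPM for IFI27, which came from 2 libraries described below.

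The ISG15 system had a mixed pattern. ISG15 itself had 8.86 ± 4.28 CPM in liver, 6.28 ± 7.73 in fat, 6.07 ± 3.61 in pituitary gland and 1.13 ± 0.893 in muscle, and it was called lowest in muscle. Its activating enzyme UBA7 had 38.0 ± 19.2 CPM in fat and 32.6 ± 15.9 in liver, which did not differ (edgeR QL adjusted p = 0.454), against 12.3 ± 4.31 in pituitary gland and 8.78 ± 3.31 in muscle. HERC6, a ligase of the HERC family, which transfers ISG15 in mice, was highest in pituitary gland. It had 31.5 ± 9.72 CPM there, 18.7 ± 4.35 in fat, 13.8 ± 9.38 in liver and 8.51 ± 3.04 in muscle, with a pituitary-to-fat log2 fold change of 0.75 (adjusted p = 0.00725). USP18, which removes ISG15 and dampens the receptor, was highest in liver at 12.3 ± 2.69 CPM, and TRIM25, a ubiquitin ligase of RNA sensing, likewise at 58.6 ± 23.7 CPM.

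DHX58, the only sensor of foreign RNA among the members in the files, had 17.0 ± 9.29 CPM in liver and 16.8 ± 4.30 in pituitary gland, 9.70 ± 5.52 in fat and 2.59 ± 1.66 in muscle. The signalling and transcription factors had 3 different orders, with IRF1 and IRF9 sharing 1. STAT2 had 340.2 ± 149.6 CPM in liver, 74.8 ± 13.7 in pituitary gland, 51.5 ± 25.6 in fat and 27.2 ± 10.3 in muscle. The lowest liver (197 CPM, bull 5) was above the highest sample of any other tissue (97.6 CPM, the pituitary gland of cow 2), and the liver-to-pituitary log2 fold change was 2.13, or 4.36-fold (edgeR QL adjusted p = 1.83e-10). This was the largest step from the first to the next tissue among the 19 members called highest in 1 tissue. APOF, an apolipoprotein gene next to STAT2 in the cattle annotation, had 714 CPM on average in liver (232 to 1219) and at most 0.326 CPM on average in the other tissues. Over the 10 livers, log2 levels of APOF and STAT2 had r = 0.522 (rho = 0.370, and r = 0.484 without the 2 livers farthest from the median of APOF), and the part of APOF reads in the STAT2 value was not tested.

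IRF7, which drives interferon transcription, had its highest mean in pituitary gland (20.3 ± 6.81 CPM), followed by fat (12.4 ± 11.1), liver (8.90 ± 3.05) and muscle (2.06 ± 1.13), and pituitary gland against fat had an edgeR QL adjusted p of 0.0515. With the fat of bull 5 left out, and also with the animal as a block, IRF7 was called highest in pituitary gland. IRF9, the DNA-binding partner of STAT2, had 51.05 ± 20.9 CPM in fat and 44.4 ± 9.14 in liver, which did not differ (adjusted p = 0.380), 23.4 ± 8.51 in pituitary gland and 18.2 ± 4.74 in muscle. IRF1 had a mean of 0.470 CPM over the 40 samples and under 3 reads in 11 of them, so its tissue levels rest on few reads.

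The ADP-ribosyltransferases and their ubiquitin ligase partners were the most uniform group, with all 5 highest in liver. PARP14, which modifies signalling proteins, had 96.5 ± 30.1 CPM in liver and 20.7 ± 6.91 to 27.0 ± 5.95 in the other tissues, a liver-to-pituitary log2 fold change of 1.85 (edgeR QL adjusted p = 1.84e-11). PARP9 had 38.4 ± 9.13 CPM in liver and 7.64 ± 2.58 in muscle, and its partner DTX3L, whose span overlaps it, 28.9 ± 8.48 and 9.12 ± 3.05. PARP12 had 49.4 ± 6.99 CPM in liver and 9.52 ± 3.63 in muscle. TRIM21, a ligase that binds antibodies inside cells, had 24.5 ± 8.15 and 6.16 ± 1.16 CPM. Of the 2 remaining members, XAF1, which promotes cell death, had 8.68 ± 2.60 CPM in liver and 7.30 ± 4.65 in fat (adjusted p = 0.407), and IFI35, which modulates RNA sensing, was highest in fat.

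IFI35 had 14.5, 47.5, 17.9, 25.5 and 10.5 CPM in the fat of cows 1 to 5 and 14.5, 21.1, 19.4, 15.3 and 66.2 CPM in that of bulls 1 to 5. The liver values ran from 7.73 to 17.3 CPM. The fat-to-liver log2 fold change was 1.001 (edgeR QL adjusted p = 0.000954), but without the liver labelled bull 3 and the fat of bull 5 and cow 2 it was 0.31 with an adjusted p of 0.21995. The rank of fat in IFI35 therefore rested on libraries that stood apart, whereas the fat-to-muscle difference of GBP5 lay between 0.93 and 1.24 in every alternative run, with an adjusted p of at most 0.0482.

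No member differed between the sexes at an adjusted p of 0.05. With the M1 model (edgeR LRT of sex within a tissue), 0 of 32 members passed in liver (0.175% of all genes did), fat (0.114%), muscle (0.517%) and pituitary gland (0.745%), and with M2 (sex and tissue over all 40 samples) 0 passed (1.69%). The test of the interaction of sex and tissue called 0 of 32 (0.335%). At an unadjusted p under 0.05 the member counts were 4 in pituitary gland (9.27% of all genes), 5 in muscle (11%), 1 in liver (7.45%), 1 in fat (6.88%), 5 with M2 (16.7%) and 1 for the interaction (8.58%). The quasi-likelihood test called 0 members in liver (0.00761% of all genes), fat (0.0228%), muscle (0.0532%) and pituitary gland (0.0913%), and DESeq2 called 0 as well (0.162%, 0.237%, 0.719% and 1.05%). Without the liver labelled bull 3, M1 called 0 members in liver (0.464% of all genes), and the median log2 fold change was 0.12, against 0.10 with it. In that fit 2 members had an unadjusted p under 0.05. The share of all genes at this threshold is not given here, so the change from 1 to 2 cannot be called particular to the members. In no tissue did the 5 cows and the 5 bulls fail to overlap in any member, where 0.548% of all genes in liver, 1.34% in pituitary gland, 1.65% in muscle and 1.29% in fat did so. Without the liver labelled bull 3, the livers of cows and bulls still overlapped in every member (1.33% of all genes did not).

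**Figure D2:**
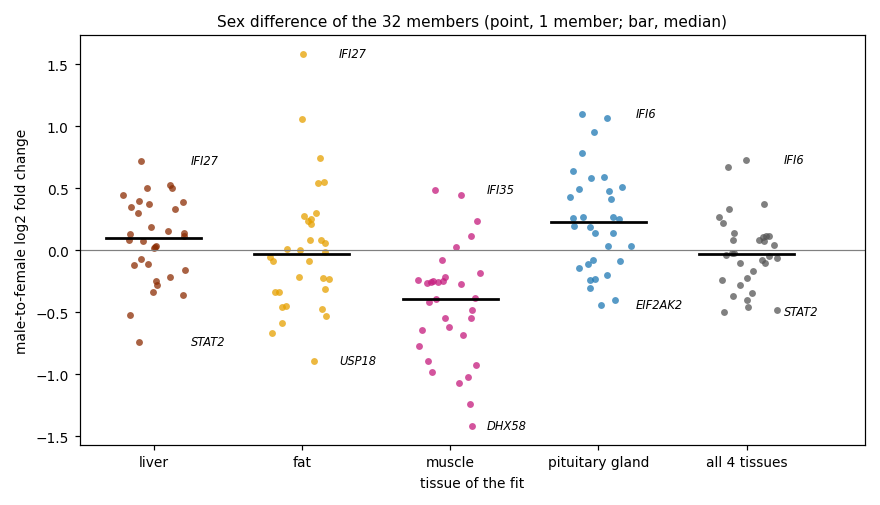
Male-to-female log2 fold change of each of the 32 members (points, spread sideways at random) in M1 fits of the 4 tissues and in M2 over all tissues, with a black bar at the median and the names of the lowest and highest member. The medians are 0.22 in pituitary gland, 0.10 in liver, -0.03 in fat and -0.39 in muscle, and none of the points passed the adjusted threshold.

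The member with the smallest p differed from tissue to tissue. In liver it was STAT2, with 508, 684, 306, 272 and 381 CPM in cows 1 to 5 and 301, 279.6, 229, 244 and 197 CPM in bulls 1 to 5. The sexes overlapped between 272 and 301 CPM, and the male-to-female log2 fold change was -0.74 (SE 0.303, edgeR LRT adjusted p = 0.467), or -0.73 without the liver labelled bull 3 (adjusted p = 0.654). In fat it was USP18, at 10.9 ± 4.38 CPM in cows and 5.90 ± 1.66 in bulls (SD, n = 5 each; log2 fold change -0.89, SE 0.413, edgeR LRT adjusted p = 0.684). In muscle it was DHX58, with 3.86, 4.41, 2.67, 5.62 and 2.37 CPM in cows and 0.695, 1.78, 1.85, 0.166 and 2.49 CPM in bulls. Only bull 5 reached the range of the cows, and the log2 fold change was -1.42 (SE 0.521, edgeR LRT adjusted p = 0.212). The pituitary gland gave OAS1Y, with 5.05, 5.95, 4.86, 8.66 and 5.74 CPM in cows and 6.63, 13.5, 11.3, 9.21 and 17.9 CPM in bulls. Only cow 4 and bull 1 broke the order of the sexes, and the log2 fold change was 0.95 (SE 0.295, edgeR LRT adjusted p = 0.103).

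In muscle, 27 of 32 members had a log2 fold change below 0, with a median of -0.39, where 52.9% of all genes were below 0. The summed leukocyte markers had a median of 1018 CPM in the muscle of cows and 600.4 CPM in that of bulls, and CD14, a monocyte marker, was lower in bulls by an M1 log2 fold change of -1.40 (adjusted p = 0.0233 with edgeR). In pituitary gland, 10 of 32 members were below 0, with a median of 0.22, where 48.0% of all genes were below 0. The leukocyte markers had medians of 690.3 CPM in cows and 616.9 CPM in bulls there, and CD2 was lower in bulls. The part of leukocytes in these values was not tested. These members share samples and move together, as shown next, so the counts describe 5 cows and 5 bulls and were not tested as a list. USP18 had the smallest interaction p, with M1 values of -1.02 in muscle, -0.89 in fat, -0.12 in liver and 0.41 in pituitary gland (edgeR LRT adjusted p = 0.284). Over all tissues STAT2 was lowest in males (M2 log2 fold change -0.50, SE 0.166, edgeR LRT adjusted p = 0.0862) and IFI6 highest (0.73, SE 0.266, adjusted p = 0.127). M2 takes the tissues of an animal as independent samples. Its SE, p-values and calls, also those below, therefore do not allow for tissues of an animal that deviate together. With the animal as a block, M2 called no member. In M1 of pituitary gland, OAS1Y passed in 2 of 14 alternative fits. These left out bull 1 (edgeR LRT adjusted p = 0.0329) or cow 4 (0.0373), the animals that broke the order of the sexes. Over the alternatives with edgeR or DESeq2, its adjusted p reached 0.341. IFI6 in pituitary gland passed without cow 5. The shares of all genes in these fits are not given here. Whether these members were called thus depended on which animal was left out. Without cow 2, without cow 4, or without the liver labelled bull 3 and the fat of bull 5 and cow 2, 1 member was called with M2 (IFI6, STAT2 and IFI6 respectively), where 0.532%, 5.22% and 1.17% of all genes were.

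An effect of the animal was called in 8 members. Because the 4 tissues of an animal carried 1 ear tag, it could be asked whether an animal that was above its sex and tissue mean in 1 tissue was above it in the others. Handling or sequencing shared by the 4 samples of an animal would enter this effect too and cannot be told apart from the animal. In edgeR's quasi-likelihood F test of the 8 animal terms within sex, 8 of 32 members passed an adjusted p of 0.05, where 5.21% of all genes did (6.07% of genes with a mean of at least 1 CPM). These were UBA7 (adjusted p = 0.00634), GBP5 (0.00915), OAS1X (0.0136), IFI6 (0.0222), GBP4 (0.0237), MX1 (0.0306), DHX58 (0.0472) and IFI27 (0.0490). They came from 5 roles: 3 of the 4 GTPases, 2 of the 4 IFIT and membrane proteins, 1 of the 7 enzymes acting on nucleic acids, 1 of the 5 genes of the ISG15 system and the sensor DHX58. None of the 4 signalling factors, of the 5 ADP-ribosylation and ubiquitin ligases or of the 2 other induced genes passed, and the next in order was XAF1 (adjusted p = 0.0562). At an unadjusted p under 0.05 there were 17 of 32 members (23.8% of all genes).

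**Figure D3:**
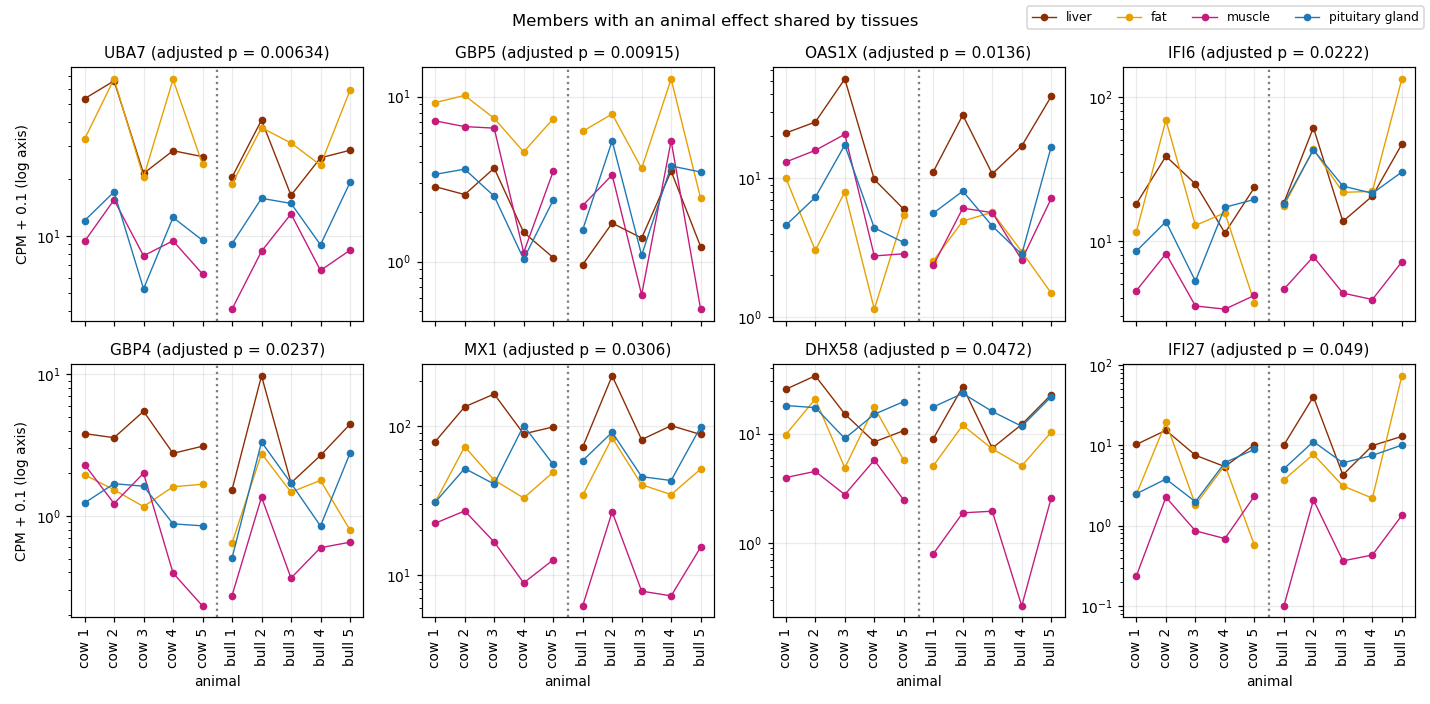
CPM + 0.1 (log axis) of the 8 members with an animal effect in each of the 10 animals, with 1 line per tissue and a dotted line between cows and bulls; the lines join animals only to guide the eye. Among the bulls, MX1 is highest in bull 2 in liver (216 CPM), fat (82.9 CPM) and muscle (26.3 CPM). In muscle, MX1 of cow 2 is slightly higher still (26.7 CPM). GBP5 of bull 4 is the highest of the bulls in liver, fat and muscle.

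MX1 gave 78.1, 134, 163, 88.0 and 98.0 CPM in the livers of cows 1 to 5 and 71.6, 216, 80.6, 99.95 and 87.2 CPM in those of bulls 1 to 5. In fat the values were 30.6, 72.2, 43.1, 32.7 and 48.6 CPM in cows and 34.0, 82.9, 40.1, 34.4 and 51.1 CPM in bulls. In muscle they were 22.1, 26.7, 16.5, 8.72 and 12.49 CPM in cows and 6.08, 26.3, 7.67, 7.12 and 15.2 CPM in bulls. Bull 2 was the highest bull in these 3 tissues, bull 1 the lowest, and cow 2 the highest cow in fat and muscle. The pituitary gland kept another order, with 30.5, 51.5, 40.5, 99.96 and 55.0 CPM in cows and 58.2, 90.2, 45.4, 42.8 and 98.1 CPM in bulls, so that cow 4 and bull 5 led.

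GBP5 split the animals in another way. It had 7.03, 6.49, 6.35, 1.03 and 3.42 CPM in the muscle of cows 1 to 5 and 2.08, 3.25, 0.529, 5.30 and 0.415 CPM in that of bulls 1 to 5. In fat it had 9.11, 10.1, 7.29, 4.53 and 7.24 CPM in cows and 6.06, 7.75, 3.57, 12.7 and 2.32 CPM in bulls. In liver it had 2.75, 2.45, 3.59, 1.40 and 0.957 CPM in cows and 0.858, 1.61, 1.29, 3.43 and 1.13 CPM in bulls. Cows 1 to 3 were above cows 4 and 5 in liver, fat and muscle, in fat by as little as 7.29 against 7.24 CPM, and bull 4 led the bulls in all 3. In pituitary gland, where cows had 3.28, 3.53, 2.39, 0.936 and 2.26 CPM, cow 4 was again the lowest cow, while bull 2 (5.29 CPM) exceeded bull 4 (3.70 CPM). The deviations of GBP5 from the sex and tissue means had r = 0.927 between fat and muscle over the 10 animals. Reads outside genes split the same cows in muscle (53.3, 42.3 and 48.1% in cows 1 to 3, 36.6 and 38.0% in cows 4 and 5). They also did so in pituitary gland (49.4, 46.7 and 52.1% against 38.9 and 35.3%). In liver cow 2 (40.4%) was below cow 4 (41.1%), and in fat cow 2 (39.4%) was below cow 5 (41.2%). The part of this share in the GBP5 values was not tested.

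Of the 17 leukocyte markers, 3 had an animal effect (5.21% of all genes did), the T cell genes CD2, CD3E and CD8A, while CD3G and CD4 did not pass (edgeR QL adjusted p = 0.122 and 0.195). CD3E had 10.2, 7.78, 17.1, 2.22 and 1.84 CPM in the muscle of cows 1 to 5 and 4.52, 1.57, 2.91, 5.96 and 1.796 CPM in that of bulls 1 to 5. In muscle, cows 1 to 3 and bull 4 were thus the highest of their sex in CD3E as they were in GBP5. The other tissues departed from this: bull 5 led the bulls in fat (6.41 CPM, against 4.54 in bull 4), cow 5 exceeded cow 2 in liver (18.2 against 17.7 CPM), and bull 4 was the lowest bull in pituitary gland (0.220365 CPM). CD2 in muscle also had cows 1 to 3 and bull 4 as the highest of their sex. CD8A in muscle had cows 1 to 3 highest, but bull 1 (1.91 CPM) exceeded bull 4 (1.33 CPM). The part of T cells in the GBP5 values was not tested. Of the muscle markers 5 of 6, of the liver markers 1 of 6 of the pituitary gland markers 1 of 7 passed too, so an animal effect was not particular to interferon-stimulated genes.

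UBA7 was led by cow 2 in all 4 tissues of the cows. Its values in cows 1 to 5 were 53.0, 65.8, 21.3, 28.1 and 26.1 CPM in liver, 32.3, 67.4, 20.3, 67.0 and 23.8 CPM in fat, 9.24, 15.4, 7.74, 9.31 and 6.18 CPM in muscle and 11.9, 17.0, 5.15, 12.4 and 9.37 CPM in pituitary gland. In bulls 1 to 5 they were 20.3, 40.8, 16.3, 25.7 and 28.2 CPM in liver and 3.99, 8.19, 12.96, 6.46 and 8.29 CPM in muscle. Cow 3 was the lowest cow in liver, fat and pituitary gland. Bull 3, lowest of the bulls in the liver so labelled, was the highest of the bulls in muscle.

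OAS1X had 21.0, 25.2, 51.5, 9.69 and 5.88 CPM in the livers of cows 1 to 5, 12.97, 15.7, 20.6, 2.66 and 2.76 CPM in their muscle and 4.48, 7.19, 17.2, 4.29 and 3.35 CPM in their pituitary gland. Cow 3 was the highest in all 3, and cows 4 and 5 the lowest. Among bulls, bull 5 led in liver (38.6 CPM), muscle (7.05 CPM) and pituitary gland (16.8 CPM) and was lowest in fat (1.39 CPM). OAS1Y did not follow its neighbour: its adjusted p of the animal effect was 0.116, and cow 4, low in OAS1X, had the most OAS1Y in liver (44.6 CPM) and pituitary gland (8.66 CPM) of the cows. OAS1Z had an adjusted p of 0.366.

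IFI6 had 18.3, 61.0, 13.5, 20.4 and 46.8 CPM in the livers, 4.52, 7.66, 4.23, 3.81 and 7.05 CPM in the muscle and 18.03, 42.8, 23.9, 21.3 and 29.9 CPM in the pituitary gland of bulls 1 to 5. Bulls 2 and 5 were the highest 2 in each. GBP4 was highest in bull 2 among bulls in all 4 tissues (9.67 CPM in liver, 3.23 in pituitary gland, 2.66 in fat and 1.26 in muscle). Its value was lowest in bull 1 in all 4 (1.43, 0.404, 0.543 and 0.174 CPM). In muscle, GBP4 had under 3 reads in 4 of the 10 samples, 2 of them bulls. The order of the lowest bulls in muscle is therefore not resolved. DHX58 was highest in cow 2 in liver (33.6 CPM) and fat (20.6 CPM) and in bull 2 in liver (26.7 CPM), fat (11.8 CPM) and pituitary gland (23.1 CPM). IFI27 was highest in bull 2 in liver (40.3 CPM), muscle (1.99 CPM) and pituitary gland (11.04 CPM), but its fat was led by bull 5 (73.4 CPM against 7.64 in bull 2). In muscle IFI27 had under 3 reads in 4 of the 10 samples.

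**Figure D4:**
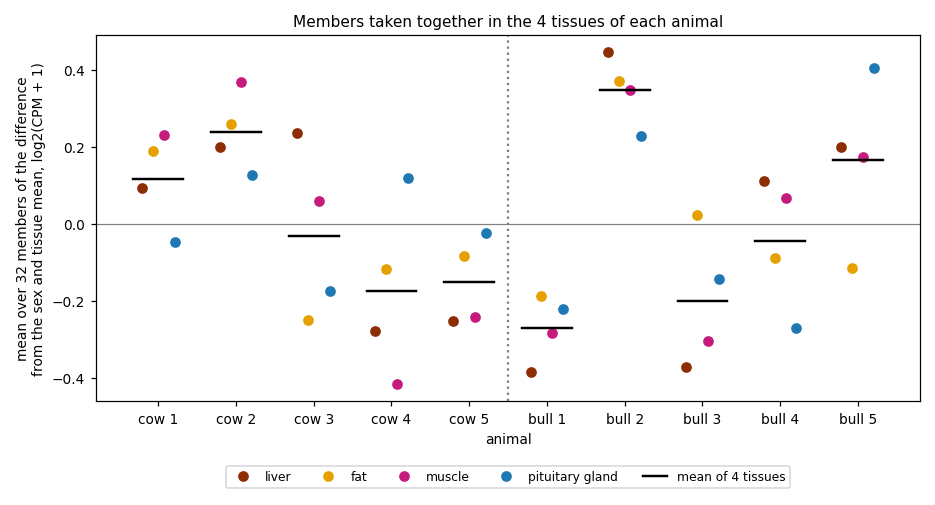
Mean over the 32 members of the difference from the sex and tissue mean on the log2(CPM + 1) scale (vertical axis) in each animal (horizontal axis), with 1 point per tissue and a bar at the mean of 4 tissues. Bull 2 (0.23 to 0.45) and cow 2 (0.13 to 0.37) lie above 0 in all 4 tissues, and bull 1 and cow 5 below 0 in all 4.

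Taken as a mean over the members, bull 2 lay above its sex and tissue mean in all 4 tissues, by 0.45 in liver, 0.23 in pituitary gland, 0.37 in fat and 0.35 in muscle on the log2(CPM + 1) scale. Cow 2 did so by 0.20, 0.13, 0.26 and 0.37. Bull 1 lay below it in all 4 tissues (mean of tissues -0.27), and so did cow 5 (-0.15). Bull 2 had the highest value of the 5 bulls in 50 of its 128 member values (32 members in 4 tissues) and the lowest in 4, cow 2 the highest of the cows in 45 and the lowest in 11, and bull 5 the highest of the bulls in 45 and the lowest in 24. In the liver of bull 2, 46.9% of members were the highest of the 5 bulls, against 22.5% of the genes with a mean of at least 1 CPM, over which all shares in this comparison were taken. In its fat and its muscle, 40.6% of members were, against 18.6% and 23.6%, and in its pituitary gland 28.1% against 22.1%. Cow 2 had the highest value of the cows in 40.6% of members in liver (27.3% of those genes), 28.1% in pituitary gland (16.1%), 40.6% in fat (22.2%) and 31.3% in muscle (18.6%). For bull 5 these shares were 56.3% in pituitary gland (27.8%), 25% in liver (23.1%), 31.3% in fat (37.0%) and 28.1% in muscle (20.5%). Bull 1 was the lowest bull in 45 of 128 values and the highest in 6, and the share of members in which it was lowest was 40.6% in liver (18.9% of those genes), 25% in pituitary gland (15.2%), 31.3% in fat (16.5%) and 43.8% in muscle (23.5%). The values are relative to 5 animals of 1 sex, so an animal's high values lower the deviations of the other 4.

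The agreement between tissues was strongest for liver and muscle. Over the 10 animals, the correlation of a member's deviations in liver with those in muscle had a median of r = 0.528, while over all genes the median was 0.156. For the other pairs the members' median was 0.277 for liver and fat (all genes 0.0784), 0.372 for liver and pituitary gland (0.262), 0.297 for fat and muscle (0.259), 0.337 for muscle and pituitary gland (0.282) and 0.124 for fat and pituitary gland (-0.00829). The mean of the 6 correlations was above 0 in 28 of 32 members (87.5%, against 75.3% of all genes), with a median of 0.310 against 0.1402. It was highest in GBP5 (0.657), UBA7 (0.623) and XAF1 (0.577) and lowest in MX2 (-0.0215). EIF2AK2, IFIT5, IFI35, PARP14 and OAS2, were close to 0 (-0.0144 to 0.00418). The mean over members correlated at r = 0.918 between liver and muscle (rho = 0.770), and at 0.894 without bulls 1 and 3, the animals farthest from the median in liver. Fat and pituitary gland were at 0.390 and were at 0.0497 without bull 2 and cow 2, but at 0.723 without bulls 3 and 5. Without bulls 3 and 5, liver and muscle were at 0.902. Liver and fat rose from 0.477 to 0.618, and liver and pituitary gland fell from 0.423 to 0.311. The liver labelled bull 3 was kept with the other tissues of bull 3 in the medians over members. The deviations of 1 library share its depth and RNA, so these coefficients are given as a description.

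The count of 8 members depended on which libraries entered. It was 0 without muscle (0.388% of all genes), 1 without liver (1.37%), 4 without fat (5.70%) and 4 without pituitary gland (1.48%). When 1 animal was left out it ran from 3, both without bull 1 (3.51%) and without bull 2 (2.49%), to 10 without cow 5 (6.70%). The 5 members lost without bull 1, and likewise without bull 2, were DHX58, GBP4, IFI27, IFI6 and MX1, and UBA7, GBP5 and OAS1X passed in both. It was 8 without the liver labelled bull 3 (5.10%), 8 without the fat of bull 5 (7.58%) and 9 without both (7.54%), and in each of these 3 fits IFI27 was lost and XAF1 gained. Without the fat of cow 2 in addition, it was 7, and DHX58, IFI27 and IFI6 were lost. The share of all genes in that last fit is not given here.

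**Figure D5:**
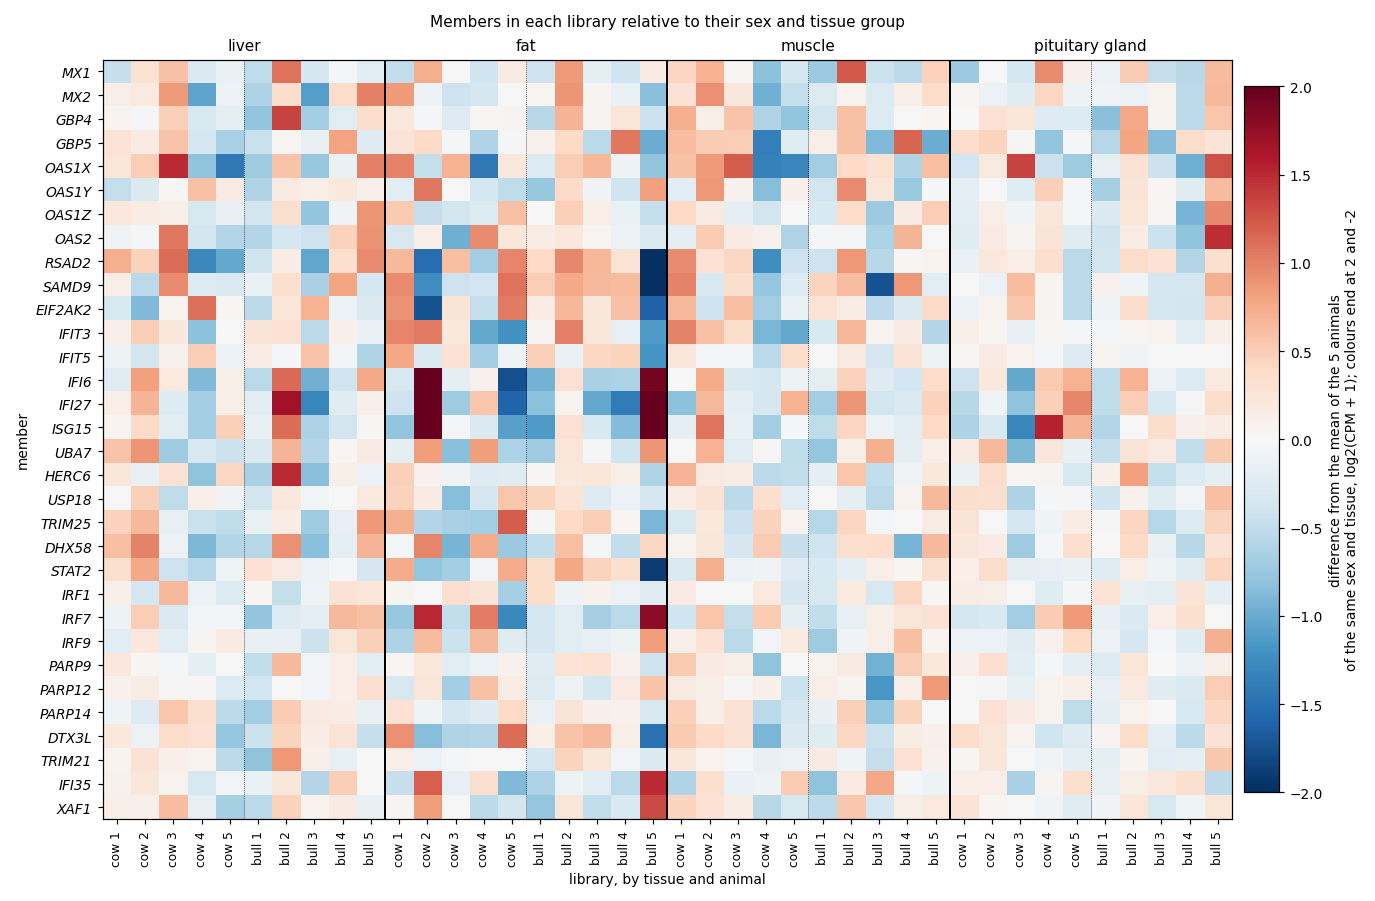
Difference of each member (rows) from the mean of the 5 animals of its sex and tissue, on the log2(CPM + 1) scale (red above, blue below, colours ending at 2 and -2), in the 40 libraries (columns). The fat of cow 2 and of bull 5 are red in IFI6, IFI27, ISG15 and IRF7 and blue in RSAD2, SAMD9 and EIF2AK2, and the columns of bull 2 are mostly red.

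The fat of bull 5 and of cow 2 had members at both ends at the same time. ISG15 was 23.3 CPM in the fat of bull 5 and 17.6 CPM in that of cow 2, against 0.944 to 6.37 CPM in the other 8. IFI6 was 133 and 68.8 CPM against 3.62 to 43.0 CPM, and IFI27 was 73.4 and 19.2 CPM against 0.472 to 7.64 CPM. RSAD2 was 1.55 and 2.86 CPM, where the other 8 had 5.86 to 23.6 CPM. SAMD9 was 0.0773 and 1.69 CPM against 3.77 to 12.4 CPM, and EIF2AK2 3.09 and 2.01 CPM against 6.21 to 19.8 CPM. In all 6 of these members the 2 libraries lay outside the range of the other 8, on the same side as each other. In the fat of bull 5, 10 members were the highest of the bulls and 18 the lowest, which is 31.3% and 56.3% of members, against 37.0% and 40.3% of genes with a mean of at least 1 CPM.

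The side on which a member lay in these libraries went with the span of its gene, as it also did in some others. The Spearman correlation of deviation and genomic span was taken over the 10845 genes with a mean of at least 1 CPM and a known span. It was -0.470 in the fat of bull 5 and -0.471 in that of cow 2, against -0.337 to 0.465 in the other 8 fat libraries. Over the 32 members it was -0.431 and -0.426 (-0.115 to 0.533 in the others). In other tissues, the members had -0.570 in the muscle of bull 3 and -0.459 in the pituitary gland of cow 5. In the fat of cow 5 and bull 4 the sign was opposite (0.526 and 0.533). In the other tissues of cow 2, the members had -0.435 in muscle, -0.375 in liver and 0.287 in pituitary gland. Over the genes with a mean of at least 1 CPM, these libraries had -0.104, 0.00153 and 0.224. The part of gene span in the member values of cow 2 was not tested. The relation was thus not particular to the fat of bull 5 and cow 2. The leukocyte marker PTPRC was 6.65 CPM in the fat of bull 5, the lowest of the 10, while the summed leukocyte markers were the highest there (3474 CPM). CD14 (19.3 CPM) and CD163 (162 CPM) were the lowest of the 10 there too, whereas CD68 (85.9 CPM) and CD3E (6.41 CPM) were not. The sum thus did not stand for each marker. USP9Y in the same library was 1.78 CPM, against 28.1 to 34.1 CPM in the fat of the other bulls. The part of RNA or library quality in the member values of these 2 libraries was not tested.

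Genes upstream of the members gave little to compare. Of 10 interferon genes on the list, 7 were in the files, and none had more than 5 reads in any sample. IFNB1, which encodes interferon beta, had 37 reads over the 40 samples. SOCS3, a feedback inhibitor of cytokine signalling, had an animal effect. Of the 9 genes of the induction pathway, 8 differed between tissues and 1, TMEM173 (STING), had an animal effect. Of 13 genes of MHC class I presentation, 11 differed between tissues and 3, BOLA, BOLA-NC1 and JSP.1, had an animal effect, and these class I genes are close copies and vary in sequence between animals. Of 6 genes known from the response to interferon gamma, 6 differed between tissues and 3, CXCL9, ICAM1 and IDO1, had an animal effect. In M1 no gene of the lists of interferon genes, induction pathway, MHC class I presentation and interferon gamma response was called, and in M2 BOLA-NC1 was, with a lower level in males. These counts stand beside 90.6% of all genes for tissue, 5.21% for the animal effect and 1.69% for M2.

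Some members were closer to the common pattern than others. The correlation of a member's deviation with the mean of the other 31 over the 40 libraries was highest for GBP4 (r = 0.775), MX2 (0.770) and MX1 (0.742), and lowest for IFIT5 (-0.104), EIF2AK2 (-0.0165) and IRF1 (-0.0101). Outside the list, the genes with a mean of at least 5 CPM whose deviations were most like the members' mean were TTF1, GPNMB, IFFO1, SPICE1, FAM21A, ARHGAP25, ZNF613, PNMA1, MSR1 and ZNF674, with r from 0.764 to 0.708. Libraries share their depth and composition across genes, so this likeness is a description over 40 libraries of 10 animals.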

How the data were processed

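RNA-seq was done on 4 tissues of 5 cows and 5 bulls. Per the labels and the study's methods, the authors trimmed reads with Trimmomatic, aligned them to bosTau7 with TopHat2 and Bowtie2, and counted reads per gene with HTSeq on the UCSC annotation. The strand setting is not given in the sources used here. The deposited values were raw read counts, with 1 file per sample. A row without a gene name (0.114 to 2.69% of reads) and the reads outside genes (33.2 to 54.0%) were left out. Of 13570 genes, 13148 had a read and were tested.

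Counts were analysed with edgeR 4.0.16 in R 4.3.3 (TMM factors): likelihood ratio tests of sex within a tissue (M1), of sex with tissue as a covariate (M2) and of their interaction, and quasi-likelihood F tests of tissue and of animal within sex. Alternatives used limma 3.58.1 (voom), DESeq2 1.42.0 (adjusted p given as NA stayed NA), RLE factors, filterByExpr and libraries left out. The test of tissue had sex as its covariate, and the test of animal had the means of the sex and tissue groups. P-values were adjusted by Benjamini-Hochberg over all genes (threshold 0.05). Deviations are log2(CPM + 1) minus the mean of the sex and tissue. Python 3.11.15 was used for descriptions. Scripts were tested on simulated data.

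The tissues of an animal were paired by the ear tag in the sample titles. Deviations of the same animal correlated at a median of r = 0.208 between tissues (60 pairs), against -0.0641 between different animals of a sex (240 pairs).

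The members and lists were chosen with earlier results of these data known. Values are given for the 8 members with the smallest p of the animal effect, the member with the smallest p of sex in each tissue, up to 3 members highest in a tissue, and the MX and OAS1 copies. The other members are given by role, and APOF, CD3E and PTPRC were chosen after their values were seen. RefSeq annotation (ARS-UCD2.0) was used for names, neighbours and gene spans only, with 32 of 32 members matched, because the counts used another build. The count over the receptor and proximal signalling genes is not reported here.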

Additional observations from a re-analysis of the deposited data

Results flagged for a closer look

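In 17 genes, each of the 136 groups of 5 animals was screened for a highest or lowest value whose gap to the nearest other exceeded 0.71 of the range. This cutoff gives about 1 in 20 groups for independent values with a normal distribution, and 15 (11.03%) were found. CPM are skewed, the genes share libraries, and some of them were chosen by their values in these data. The 2 rates therefore cannot be compared, and the screen only lists values. In fat, cow 2 was high in IFI6 (68.8 CPM), IFI27 (19.2 CPM) and OAS1Y (21.4 CPM), and bull 5 in IFI6 (133 CPM), IFI27 (73.4 CPM) and IFI35 (66.2 CPM). In liver, bull 2 was high in MX1 (216 CPM), IFI27 (40.3 CPM) and HERC6 (38.8 CPM), and bull 1 was low in OAS1Y (24.7 CPM). In muscle, cow 2 was high in STAT2 (53.7 CPM) and IFI6 (8.04 CPM). In pituitary gland, cow 3 was high in OAS1X (17.2 CPM) and cow 4 in OAS1Y (8.66 CPM). MX2 was high in the fat of cow 1 (1.802 CPM). Of the 15 values, 6 came from the fat of cow 2 and of bull 5.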

How the results depend on the processing

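Of the counts and medians recomputed under the alternatives, 185 stayed within 1.5 times of the reported value (for the median r, within its spread), 25 moved further and 0 changed sign. For single members, 266 values kept their side of the threshold, 59 lost it and 2 gained it. These pool stable and unstable results. Over 21 alternative fits, the animal effect passed in 19 for UBA7 and GBP5 and in 16 for OAS1X and GBP4. It passed in 14 for IFI6 and MX1, in only 8 for DHX58 and in only 4 for IFI27. With M1 in pituitary gland, 0 to 1 members were called when 1 animal was left out. With M2, 0 to 1 were called when 1 animal was left out, and 1 without the liver labelled bull 3 and the fat of bull 5 and cow 2. The animal effect was called in 16 members by the likelihood ratio test (16.9% of all genes), in 3 to 10 with 1 animal left out, in 1 without liver, 4 without fat, 0 without muscle and 4 without pituitary gland. Members highest in fat numbered 1 without the liver labelled bull 3 and the fat of bull 5 and cow 2. Members highest in pituitary gland numbered 2 with the animal as replicate block, with RLE factors, without the fat of bull 5, without it and the liver labelled bull 3, and without these and the fat of cow 2, and 1 to 2 with 1 animal left out. The shares of all genes for these counts of highest members are not given here, and the causes of these shifts were not tested. With the animal as a replicate block in voom, which allows for tissues of 1 animal that deviate together, M2 called 0 members and 0.0608% of all genes. With the animal as replicate block in the tissue test, 31 members were called, as without it. The alternatives that leave out both the liver labelled bull 3 and the fat of bull 5, with or without the fat of cow 2, were chosen after seeing the data. Reads limit the rarest members: IRF1 had under 3 reads in 11 of 40 samples, and MX2, GBP4 and IFI27 in 4 each.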
